A study of Arabidopsis thaliana with 24 samples.

Results

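Genes of leaf volatile synthesis were examined in rosettes of Arabidopsis thaliana fed on by mites or caterpillars. They were chosen by name, as enzymes that make the volatile compounds a leaf gives off under attack, and all 7 were found among the 32833 genes of the count table. The members were BSMT1 (AT3G11480), TPS10 (AT2G24210), TPS02 (AT4G16730), TPS03 (AT4G16740), TPS04 (AT1G61120), CYP82G1 (AT3G25180) and HPL1 (AT4G15440). The plants were wild type in every group, and the labels name no accession. Seed was treated with H2O (not primed) or with methyl jasmonate (primed), a derivative of jasmonic acid (JA), the hormone of wound responses. Plants of each kind were left uninfested, or carried Tetranychus urticae, a spider mite that sucks out leaf cells, or chewing Pieris brassicae caterpillars, and infested plants were sampled at 24 hours. Each of the 6 groups had 4 libraries, which makes 24. Biological replicates are numbered in the labels without saying whether each was a single plant or a pool, so p-values measure the spread between these libraries.

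Plants attacked by herbivores emit blends of small volatile molecules, which can draw in the enemies of the herbivore and reach neighbouring leaves. BSMT1 is a methyltransferase of the SABATH family that turns salicylate and benzoate into methyl salicylate and methyl benzoate. TPS10 makes linalool and other monoterpenes, and TPS02 and TPS03 are ocimene synthases. TPS04 makes geranyllinalool, and the cytochrome P450 CYP82G1 cleaves it to the homoterpene TMTT. HPL1, a hydroperoxide lyase, cuts fatty acid hydroperoxides into the aldehydes of the green leaf volatiles, from the same substrate that allene oxide synthase (AOS) takes into JA. In the reference accession Columbia the HPL1 and TPS02 proteins are known to be inactive, so for these genes a transcript level need not stand for enzyme activity.

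The genes lie at separate loci in TAIR10.1, except that TPS02 (chr4:9402898-9406136, plus strand, 7 exons) and TPS03 (chr4:9407611-9411140, plus strand, 7 exons) are direct neighbours with 1474 bases and 0 annotated genes between them. TPS04 spans chr1:22523635-22528836 on the plus strand in 12 exons, TPS10 spans chr2:10294286-10297597 on the plus strand in 7 exons, and BSMT1 spans chr3:3614421-3617342 on the plus strand in 5 exons. CYP82G1 spans chr3:9167138-9169301 on the minus strand in 3 exons, and HPL1 spans chr4:8835368-8838676 on the plus strand in 2 exons. The longest transcripts of TPS10, TPS02 and TPS03 were 65.4% to 69.2% identical over their aligned bases. No stretch of 50 bases in the transcripts of the 4 terpene synthases, CYP82G1 or HPL1 occurred in a transcript of another gene, on either strand. In BSMT1, 30 of 1419 such stretches (2.11%) were shared with AT3G11490, a gene on the opposite strand that overlaps it by 79 bases. The level of AT3G11490 had group means of 18.0 to 25.8 CPM (counts scaled to library size after TMM normalisation) and was not higher in infested rosettes, where BSMT1 was.

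The promoters are shown for the members that hold a hexamer bound by JA-pathway or salicylate-pathway factors. All 7 members, with or without such a hexamer, are compared between pests below. The window of 250 bases before to 50 bases after each gene start was searched on both strands for CACGTG and CACATG (bound by MYC factors), TTGACC or TTGACT (the W-box of WRKY factors) and GCCGCC (bound by ERF factors). CACATG was found in TPS04 (at -177 and -82 from the start), TPS10 (at -102) and TPS02 (at -172), and in 12.9% of 27443 protein-coding promoters. A W-box was found in BSMT1 (at -135) and in 32.4% of all promoters. CACGTG and GCCGCC, present in 7.68% and 2.57% of promoters, were in 0 of the 7 windows. A match is a description of the letters and not evidence of binding. The 250 bases before the start are written 5′ to 3′ on the gene's strand, from RefSeq's TAIR10.1 sequence, with the matches in capitals (CACATG or its reverse complement in the first 3, a W-box read on the other strand in BSMT1). They cover chr1:22523385-22523634, chr2:10294036-10294285, chr4:9402648-9402897 and chr3:3614171-3614420 in that order.
TPS04: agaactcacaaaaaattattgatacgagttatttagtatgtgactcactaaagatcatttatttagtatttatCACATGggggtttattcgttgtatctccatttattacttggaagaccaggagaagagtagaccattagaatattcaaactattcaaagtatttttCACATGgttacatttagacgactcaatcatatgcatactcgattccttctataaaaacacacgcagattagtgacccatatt
TPS10: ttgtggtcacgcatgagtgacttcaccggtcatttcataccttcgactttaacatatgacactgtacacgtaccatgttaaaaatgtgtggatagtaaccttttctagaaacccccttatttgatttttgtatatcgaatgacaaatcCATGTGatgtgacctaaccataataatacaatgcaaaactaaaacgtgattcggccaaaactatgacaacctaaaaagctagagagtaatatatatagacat
TPS02: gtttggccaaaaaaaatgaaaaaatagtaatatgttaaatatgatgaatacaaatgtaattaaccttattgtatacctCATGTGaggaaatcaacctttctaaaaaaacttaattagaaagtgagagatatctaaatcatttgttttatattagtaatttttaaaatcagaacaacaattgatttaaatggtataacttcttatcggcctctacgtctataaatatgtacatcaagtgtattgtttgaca
BSMT1: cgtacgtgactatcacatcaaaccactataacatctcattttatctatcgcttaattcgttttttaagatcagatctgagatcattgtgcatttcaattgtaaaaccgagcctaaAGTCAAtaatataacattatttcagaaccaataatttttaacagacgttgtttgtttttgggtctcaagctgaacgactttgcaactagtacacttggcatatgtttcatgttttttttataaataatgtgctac

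A library held 15852109 to 27986799 counts in total. After a filter on low counts 20038 genes were tested. Rosette leaf markers summed to 26811 to 41180 CPM, 5 root markers to at most 0.475 CPM with EXPA7 and LRX1 at 0, and 7 flower markers to 4.60 to 10.5 CPM in all groups. The leaf markers were lower under mites, at 26811 to 30514 CPM in the mite-infested libraries and 33815 to 41180 CPM in the others. Whether this bears on the values below was not tested. In bulk rosettes, fewer cells of a type and less RNA per cell cannot be told apart. TPS04 and HPL1 reached the count minimum of the filter in all 8 control libraries, BSMT1 in 4, CYP82G1 in 3, and TPS10, TPS02 and TPS03 in 0. The last 3 were therefore tested only because infested libraries held their transcripts, and such genes had to differ from the controls. CYP82G1, at 3 control libraries, fell short of the 4 that the filter asks for, so it too was tested only through infested libraries. Counts of members called are therefore given as a description.

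The not-primed controls were not a uniform group for these genes. TPS04 was at 1.16 and 1.09 CPM in control replicates 1 and 2 and at 29.2 and 25.1 CPM in replicates 3 and 4. HPL1 was at 21.2, 14.4, 41.4 and 50.9 CPM in the same 4 libraries, and BSMT1 at 0.139, 0, 1.59 and 1.08 CPM. CYP82G1 was at 0.046, 0.048, 0.891 and 0.141 CPM. For all 4 genes replicates 3 and 4 lay above replicates 1 and 2. The primed controls lay between or within these values, with TPS04 at 9.18 to 21.7 CPM, HPL1 at 21.5 to 35.0 CPM BSMT1 at 0.158 to 0.549 CPM and CYP82G1 at 0.203 to 0.633 CPM. Each comparison that uses the not-primed controls is therefore also given with replicates 1 and 2, or 3 and 4, left out where this matters.

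**Figure D1:**
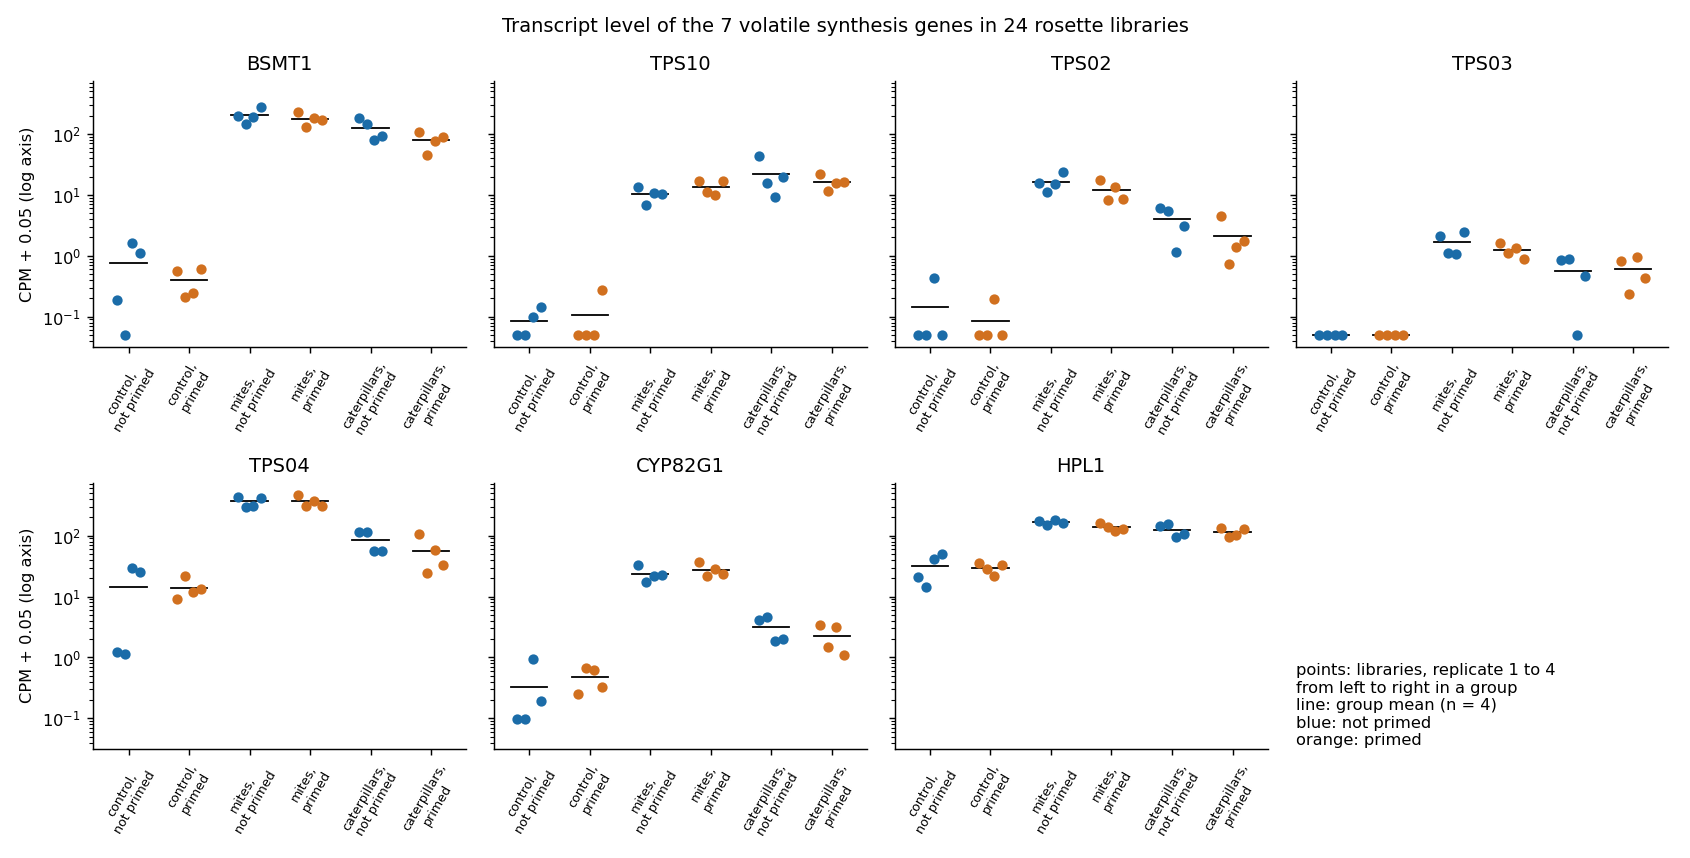
Level of each gene in each of the 24 libraries, in CPM + 0.05 on a log axis, by group, with points for libraries and lines for group means. TPS10 and TPS02 lie at or below 0.375 CPM and BSMT1 at or below 1.59 CPM in every control library, each below all infested libraries, while TPS04 in not-primed controls falls at about 1.1 CPM in 2 libraries and at 25.1 and 29.2 CPM in the other 2.

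Mite-infested and caterpillar-infested rosettes held more of these transcripts than uninfested ones. The amounts ranged from about 2 on the log2 scale for HPL1, already expressed in the controls, to over 7 for BSMT1 and TPS10 with both pests. BSMT1 and TPS10 were nearly absent from the controls. The largest fitted value was 9.06 for TPS10 under caterpillars in not-primed plants, whose controls held 3 counts of it. Differences are log2 fold changes ± SE from edgeR's quasi-likelihood test with n = 4 libraries per group, with p-values adjusted over all tested genes by the Benjamini-Hochberg method and called under 0.05. All 7 members were called higher under mites in not-primed plants, where 26.5% of tested genes were, and under caterpillars, where 14.2% were. In primed plants all 7 were again called higher, beside 22.3% of tested genes under mites and 12.1% under caterpillars. In not-primed plants 23.5% of all tested genes had every mite library above every control, and 12.8% had every caterpillar library above. In primed plants these shares were 21.2% and 12.2%. Statements below that infested and control groups did not overlap stand beside these shares. The median log2 fold change of the members was 7.36 under mites and 5.25 under caterpillars in not-primed plants, beside 0.01 and -0.0047 over all tested genes. With TPS03 at its lower bound the members' medians were 6.36 and 3.72. TPS10, TPS02, TPS03 and CYP82G1 were tested only through infested libraries, so counts and medians that include them are a description only.

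BSMT1, the methyl salicylate synthase, had 3, 0, 34 and 23 counts in the 4 not-primed controls and 3858, 2889, 3551 and 6547 counts under mites. In CPM this was 0.139, 0, 1.59 and 1.08 without pests, and 200, 144, 188 and 274 under mites. Every infested library lay far above every control. Under caterpillars the not-primed libraries stood at 182, 148, 79.4 and 92.3 CPM, also with no overlap with the controls. BSMT1 rose by 8.15 ± 0.45 under mites (adjusted p = 1.41e-12) and by 7.46 ± 0.45 under caterpillars (adjusted p = 1.59e-10). In primed plants it rose by 8.98 ± 0.50 and 7.81 ± 0.51 (adjusted p = 1.63e-12 and 4.80e-10). The size in not-primed plants depended on which controls were used: under mites it was 11.36 without control replicates 3 and 4, 8.93 without replicate 3 alone and 7.22 without replicates 1 and 2.

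TPS10, the linalool and ocimene synthase, had 3 counts in all in the not-primed controls and 4 in the primed controls, all of the latter in replicate 4. Under mites the not-primed libraries held 264, 134, 202 and 243 counts, and under caterpillars 760, 324, 252 and 506. With so few control counts the change is given as a ratio of group levels with an exact 95% counting interval, which covers counting error only. It was 291-fold (99.4 to 1416) under mites and 576-fold (197 to 2796) under caterpillars in not-primed plants. In primed plants the ratios were 265-fold (103 to 974) and 321-fold (125 to 1182). The transcript thus went from single counts to 134 or more counts in every infested library, and the groups did not overlap in any of the 4 comparisons. Because the gene was tested only through its infested libraries, this lack of overlap was nearly fixed in advance, and no p is given against the controls.

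The ocimene synthase gene TPS02 was found in 1 of 4 not-primed controls, with 8 counts in replicate 3, and in 1 of 4 primed controls, with 3 counts in replicate 3. It stood at 15.8, 11.1, 15 and 23.3 CPM under mites and at 6.10, 5.40, 1.10 and 3.04 CPM under caterpillars in not-primed plants. The controls, at most 0.375 CPM, lay below all of these, which was nearly fixed in advance for a gene tested only through infested libraries. The fitted log2 fold change of TPS02 was 7.36 ± 0.71 under mites and 5.25 ± 0.81 under caterpillars in not-primed plants, given without a p for the same reason, and without control replicate 3 the remaining controls held no count. In primed plants the ratios were 295-fold (101 to 1431) under mites and 53.9-fold (18.1 to 264) under caterpillars.

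TPS03, the second ocimene synthase and the neighbour of TPS02, had no count in any of the 8 control libraries. It held 40, 21, 19 and 58 counts under mites and 14, 17, 0 and 11 under caterpillars in not-primed plants. In primed plants it held 30, 27, 27 and 23 counts under mites and 15, 3, 18 and 8 under caterpillars. TPS03 was the scarcest of the 7, and 1 caterpillar library had none of it. Against a floor of 3 counts over the control group it was at least 47.7-fold higher under mites in not-primed plants. Under caterpillars it was at least 13.1-fold higher, and in primed plants at least 29.6-fold and 15-fold higher. These bounds take the infested counts as observed and leave out the spread between infested libraries. TPS03 too was tested only through infested libraries, and no p is read from it. With caterpillars limma on log2(FPKM + 1), where FPKM is a level scaled by gene length and library, did not call it.

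TPS04, which makes the precursor of the homoterpene TMTT, was the member with the highest CPM under mites. The not-primed libraries stood at 439, 300, 307 and 421 CPM under mites and at 114, 117, 56.8 and 56.8 CPM under caterpillars, beside the controls at 1.09 to 29.2 CPM. Groups did not overlap with either pest. The rise was 4.70 ± 0.61 under mites (adjusted p = 5.94e-07) and 2.60 ± 0.58 under caterpillars (adjusted p = 0.00131). Without control replicates 3 and 4 it was 8.33 and 6.21, and without replicates 1 and 2 it was 3.75 and 1.66, called each time. Primed plants, whose controls were closer together, rose by 4.71 ± 0.62 and 1.98 ± 0.58 (adjusted p = 9.49e-07 and 0.0136). The caterpillar value in primed plants was not called without caterpillar replicate 1 (1.45, adjusted p = 0.0856).

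CYP82G1, the P450 that acts after TPS04, had 1, 1, 19 and 3 counts in the not-primed controls. It held 632, 348, 407 and 540 counts under mites, but only 70, 92, 49 and 51 under caterpillars. Both sets lay above the controls, the caterpillar libraries at 1.80 to 4.51 CPM and the controls at most 0.891 CPM. The gene passed the filter only through its infested libraries, which made this likely in advance, and no p is given against the controls. The fitted rise of CYP82G1 was 6.36 ± 0.47 under mites and 3.38 ± 0.57 under caterpillars. Without control replicate 3 these were 8.13 and 5.13, and without replicates 3 and 4 they were 8.80 and 5.79. Without replicates 1 and 2 they were 5.49 and 2.51. In primed plants CYP82G1 rose by 6.0 ± 0.45 and 2.38 ± 0.57.

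HPL1 was the only member well expressed in all uninfested rosettes and had the smallest change under mites. The not-primed libraries stood at 174, 150, 180 and 163 CPM under mites and at 146, 154, 93.6 and 108 CPM under caterpillars. All of them lay above the 14.4 to 50.9 CPM of the controls. HPL1 rose by 2.38 ± 0.25 under mites (adjusted p = 1.94e-08) and by 1.97 ± 0.25 under caterpillars (adjusted p = 1.65e-06), and in primed plants by 2.23 ± 0.25 and 1.97 ± 0.25 (adjusted p = 8.46e-08 and 1.77e-06). Without control replicates 3 and 4 the not-primed values were 3.22 and 2.78, and without replicates 1 and 2 they were 1.85 and 1.44.

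**Figure D2:**
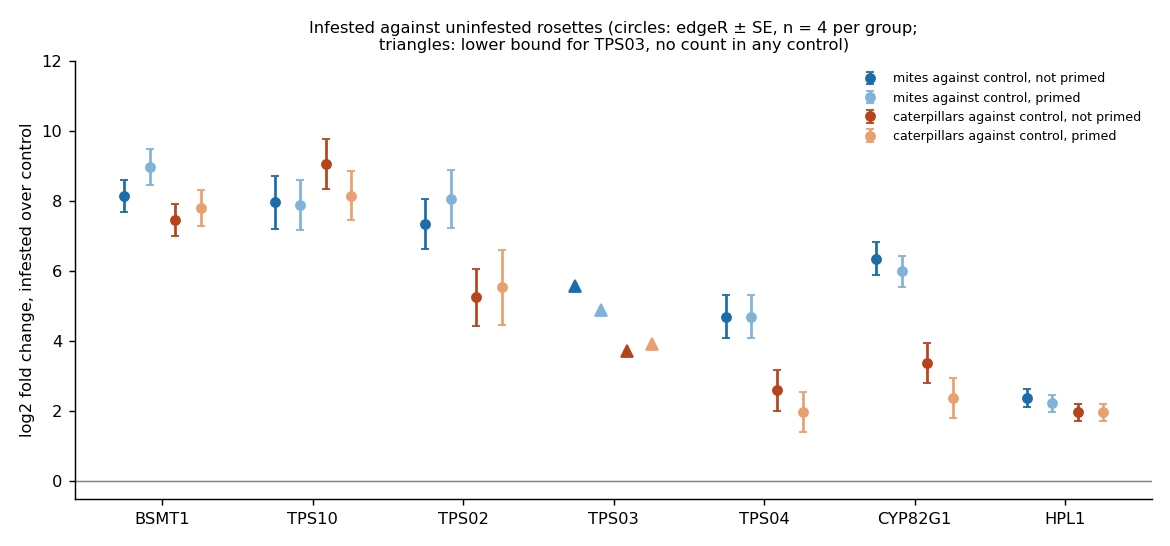
Log2 fold change of infested over uninfested rosettes for each gene, with circles for edgeR values ± SE (n = 4 libraries per group) and triangles for the lower bounds of TPS03. BSMT1 lies between 7.46 and 8.98 with both pests, while CYP82G1 lies at 6.36 and 6.0 under mites and at 3.38 and 2.38 under caterpillars.

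Levels per length, in FPKM, put the members in another order with each pest. In not-primed mite-infested rosettes BSMT1 averaged 137 ± 36.9 FPKM, TPS04 125 ± 25.3 and HPL1 89.1 ± 6.99 (SD, n = 4). The other 4 followed at 11.8 ± 3.29 FPKM for CYP82G1, 7.92 ± 2.46 for TPS02, 5.10 ± 1.43 for TPS10 and 0.644 ± 0.285 for TPS03. BSMT1 and TPS04 differed by less than their spread. In not-primed caterpillar-infested rosettes the order was BSMT1 at 85.0 ± 32.7 FPKM, HPL1 at 66.7 ± 15.6, TPS04 at 29.3 ± 11.5 and TPS10 at 10.9 ± 7.50. BSMT1 and HPL1 differed here by less than the spread of BSMT1, and their ranges overlapped. TPS02 at 1.89 ± 1.11 FPKM and CYP82G1 at 1.54 ± 0.704 then differed by less than their spread, and TPS03 was last at 0.203 ± 0.154. Uninfested not-primed rosettes held HPL1 at 17.1 ± 9.06 FPKM and TPS04 at 4.82 ± 5.15, with the other members under 0.5.

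The blend of transcripts thus differed between the pests, and the difference was tested directly. In not-primed plants TPS02, TPS03, TPS04 and CYP82G1 were lower under caterpillars than under mites, beside 11.9% of tested genes called lower, and TPS10 was higher, beside 13.7% called higher. In primed plants BSMT1, TPS02, TPS04 and CYP82G1 were lower, beside 11.5% called lower, and 0 members were called higher, beside 10.5%. CYP82G1 differed most: its log2 difference was -2.98 ± 0.33 (edgeR adjusted p = 6.67e-07) in not-primed and -3.62 ± 0.35 (8.33e-08) in primed plants, and its 8 caterpillar libraries (1.04 to 4.51 CPM) lay below all 8 mite libraries (17.3 to 37.2 CPM). TPS04 differed by -2.10 ± 0.53 (edgeR adjusted p = 0.00472) and -2.72 ± 0.55 (0.000755), again with no overlap. Of the 20038 tested genes, 2518 had every caterpillar library below every mite library in not-primed plants, and 2405 did in primed plants.

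TPS02 differed in the same direction, by -2.11 ± 0.42 (edgeR adjusted p = 0.000584) in not-primed and -2.52 ± 0.46 (0.000252) in primed plants. Its neighbour TPS03 differed by -1.73 ± 0.60 (edgeR adjusted p = 0.0384) in not-primed plants, a call that was lost without caterpillar replicate 3 (adjusted p = 0.0598), caterpillar replicate 4 (0.0934), mite replicate 1 (0.0895) or mite replicate 4 (0.114). In primed plants TPS03 differed by -1.02 (95% interval -2.28 to 0.24; adjusted p = 0.250) and was not called. TPS10 went the other way in not-primed plants, higher under caterpillars by 1.09 ± 0.32 (edgeR adjusted p = 0.0135). Caterpillar replicate 1, at 44.2 CPM, was the highest, and without it the difference was 0.54 and was not called (adjusted p = 0.152). Nor was it called without mite replicate 2 (0.91, adjusted p = 0.0581). In primed plants the difference for TPS10 was 0.27 (95% interval -0.39 to 0.92; adjusted p = 0.601).

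BSMT1 differed by -1.17 ± 0.28 between caterpillars and mites in primed plants (edgeR adjusted p = 0.00339), where DESeq2 gave an adjusted p of 0.134. In not-primed plants its difference was -0.69 (95% interval -1.25 to -0.12; adjusted p = 0.0674), and it was called without caterpillar replicate 1 (-0.91, 0.0226) or without mite replicate 2 (-0.84, 0.0355). HPL1 differed by -0.41 (95% interval -0.89 to 0.06; adjusted p = 0.205) in not-primed and by -0.25 (-0.73 to 0.23; 0.485) in primed plants. HPL1 was thus the member with the smallest difference between pests, and these intervals leave room for up to 0.89 on the log2 scale.

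**Figure D3:**
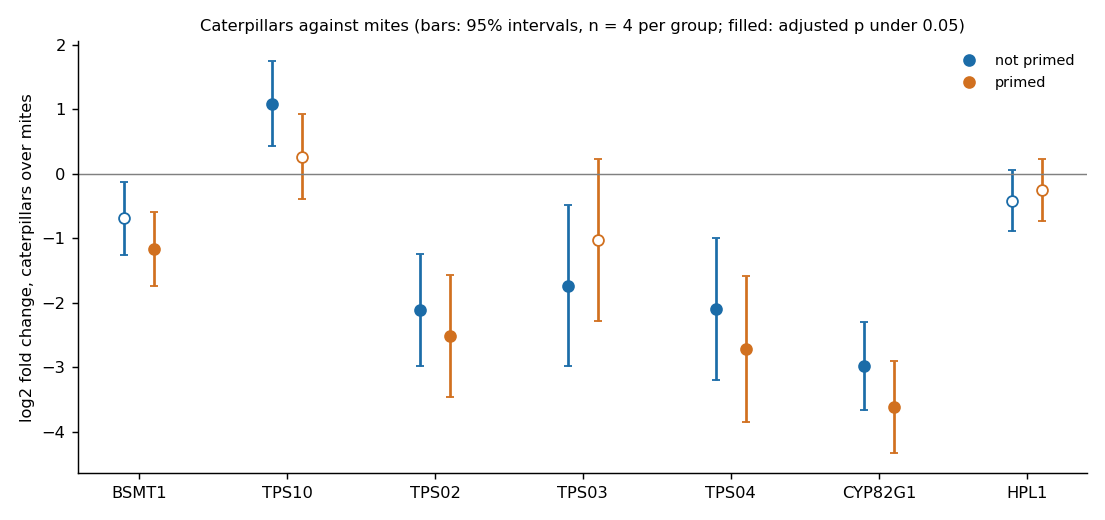
Log2 fold change of caterpillar-infested over mite-infested rosettes for each gene in not-primed and primed plants, with 95% intervals (n = 4 libraries per group) and filled points where the adjusted p is under 0.05. CYP82G1 is lowest, at -2.98 and -3.62, and TPS10 alone lies above 0, at 1.09 and 0.27.

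Ratios of members within a library do not depend on the scaling between libraries, and those below are given as a description, since the pairs were chosen after their values were seen. The log2 ratio of TPS10 to TPS04, from FPKM, lay between -4.95 and -4.30 in the 4 not-primed mite libraries and between -2.34 and -0.83 in the 4 caterpillar libraries. Its mean was 3.07 higher under caterpillars, and 3.21 higher in primed plants. The ratio of CYP82G1 to TPS04, consecutive enzymes of one route, differed by -0.86 in not-primed and -0.83 in primed plants, lower under caterpillars. BSMT1 relative to TPS04 was higher under caterpillars by 1.43 and 1.73. In all of these the 4 libraries with one pest lay on one side of the 4 with the other. No test is read from these ratios.

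Seed treatment with methyl jasmonate gave no called change in these genes. Of the 7 members 0 were called between primed and not-primed plants without pests, where 14.8% of tested genes were, 0 under mites, where 6.36% were, and 0 under caterpillars, where 8.15% were. DESeq2 and limma on log2(FPKM + 1) called 0 in each as well. At an unadjusted p under 0.05, edgeR passed 1 of the 21 values, BSMT1 under caterpillars. BSMT1 stood there at 182, 148, 79.4 and 92.3 CPM in not-primed and at 108, 44.4, 75.9 and 88.3 CPM in primed plants. The groups overlapped, and the difference was -0.66 (95% interval -1.23 to -0.09; unadjusted p = 0.0259, adjusted p = 0.157).

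Under mites the primed and not-primed groups overlapped for every member, as they did for most tested genes. Over all tested genes 6.46% had every primed library above every not-primed one, and 5.66% had every one below. Under caterpillars these shares were 6.30% and 6.49%. The intervals of the difference were narrowest for HPL1 (-0.76 to 0.19), BSMT1 (-0.74 to 0.38) and CYP82G1 (-0.35 to 0.80), and for TPS04 the interval was -1.06 to 1.04. The intervals were -0.27 to 1.07 for TPS10, -1.26 to 0.33 for TPS02 and -1.63 to 0.65 for TPS03. Every interval included 0, and differences within these bounds are not excluded. Under caterpillars the differences were -0.42 for TPS10, -0.88 for TPS02, -0.63 for TPS04, -0.41 for CYP82G1, -0.12 for HPL1 and 0.22 for TPS03, each with an interval that included 0. Fitted without the other groups, HPL1 under mites was called (-0.28, adjusted p = 0.0280).

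In uninfested plants the comparison turned on the control libraries described above. TPS04 averaged 14.1 ± 15.1 CPM in not-primed and 14.0 ± 5.38 CPM in primed controls (SD, n = 4), and the log2 difference was -0.02 (95% interval -1.26 to 1.23). Without not-primed control replicates 3 and 4 it was called 3.59 higher in primed plants (adjusted p = 0.000682), and without replicates 1 and 2 it was -0.96 and not called (0.198). HPL1, at -0.12 with all libraries, was called higher in primed plants by 0.69 (adjusted p = 0.0172) without replicates 3 and 4, and lower, at -0.65 (0.0268), without replicates 1 and 2. The sign of the priming difference in these 2 genes thus followed the choice of not-primed control libraries.

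The test of whether priming altered the response to a pest called 0 of 7 members for mites, where 1.1% of tested genes were called, and 0 for caterpillars, where 0% were. Without not-primed control replicates 3 and 4, TPS04 (-3.60, edgeR adjusted p = 0.00498) and HPL1 (-0.96, 0.0141) were called for mites and TPS04 (-4.21, 0.00712) for caterpillars. For the difference in the priming effect between pests the test with all libraries called 0 members, beside 0.00998% of tested genes. The intervals of this last term were -1.28 to 0.32 for BSMT1, -1.75 to 0.11 for TPS10, -1.64 to 0.36 for CYP82G1 and -0.51 to 0.84 for HPL1. At an unadjusted p under 0.05, 0 of the 21 interaction values passed in edgeR, and DESeq2 and limma called 0 members.

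**Figure D4:**
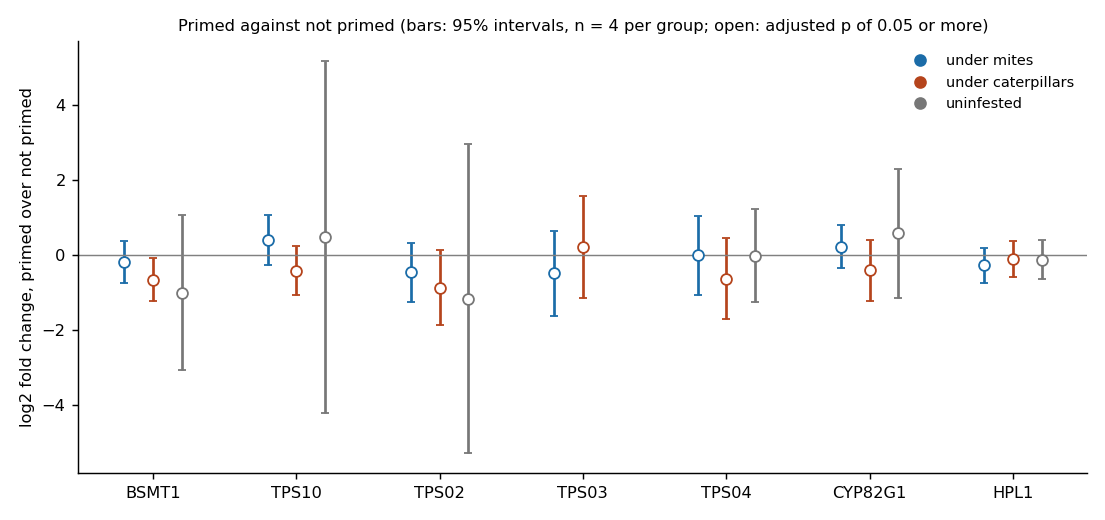
Log2 fold change of primed over not-primed rosettes for each gene under mites, under caterpillars and without pests, with 95% intervals (n = 4 libraries per group), and with TPS03 left out where it has no counts. All points are open, none reaching an adjusted p of 0.05, and BSMT1 under caterpillars, at -0.66, has an interval that ends at -0.09.

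Genes around the members in their pathways were read from lists by function. Of 25 other terpene synthases 8 were tested, and 0 were called higher in any of the 4 comparisons of infested with uninfested plants. One was called lower in each comparison but that of caterpillars in primed plants, where 0 were. Over all tested genes 26.5% were called higher and 24.9% lower under mites in not-primed plants, 22.3% and 23.5% in primed plants, and 14.2% and 13.6% under caterpillars in not-primed plants, and the list counts that follow stand beside these shares. The plastid MEP pathway and its prenyl diphosphate steps, which supply the precursors of monoterpenes and geranyllinalool, had no gene called higher under mites. Of its 10 tested genes 6 were called lower and 0 higher in not-primed plants, among them MCT (-0.58), HDR (-0.49), CMK (-0.36) and DXR (-0.28), and 4 were lower in primed plants. The median of the list was -0.15 in not-primed plants, beside 0.01 over all tested genes. Under caterpillars 1 rose (DXS, by 0.14) and 1 fell (HDR, -0.27), and between caterpillars and mites 5 of the 10 were called higher and 0 lower in not-primed plants, and 3 higher and 2 lower in primed plants. The leaf markers moved in the same direction: 4 of 4 were called lower in mite-infested not-primed rosettes (median -0.43), and whether this bears on the MEP values was not tested.

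Beside HPL1, some steps rose and 1 fell. Of 5 tested genes on the green leaf volatile list, 3 were called higher and 1 lower under mites in not-primed plants. The list includes AOS, which takes the substrate of HPL1 into JA and is not itself a green leaf volatile step. CHAT, which makes hexenyl acetate, rose by 5.08, the lipoxygenase LOX2 by 3.55 and AOS by 2.49. The reductase CHR fell by 0.47 on the log2 scale, and the alcohol dehydrogenase ADH1 (0.13) was not called. The list's median was 2.49, the value of AOS. Under caterpillars CHAT, LOX2, AOS and CHR stood at 4.05, 3.06, 2.16 and -0.32, all called. CHAT differed by -1.04 between caterpillars and mites, lower under caterpillars (edgeR adjusted p = 0.00518). In CPM, LOX2 reached a group mean of 10975 under mites in not-primed plants, from 940 in their controls, and CHAT reached 16.5 from 0.481.

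Around BSMT1, 5 of 7 tested genes of salicylate supply and methyl salicylate hydrolysis were called higher under mites in not-primed plants and 1 lower, with a median of 1.71. The supply gene EDS5 rose by 1.91, PBS3, which conjugates isochorismate, by 1.87, and the isochorismate synthase ICS1 by 1.00. The esterases MES7 and MES9 rose by 2.55 and 1.71, and MES2 fell by 0.52 on the log2 scale. Under caterpillars 3 esterases rose, MES7 by 3.09, MES9 by 1.11 and MES1 by 1.02, while MES2 fell by 0.25 on the log2 scale and the supply genes EDS5, PBS3 and ICS1 were not called. The direct comparison put PBS3 (-2.01), EDS5 (-1.31) and ICS1 (-0.81) lower under caterpillars than under mites (edgeR adjusted p at most 0.0034), while BSMT1 was at -0.69 and not called.

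Of 13 other SABATH methyltransferases tested, 4 were called higher under mites in not-primed plants and 3 lower, with a median of 0.58, shares close to the 26.5% and 24.9% of all tested genes. FAMT, a farnesoic acid methyltransferase, rose by 3.86, AT1G15125 by 2.74 and JMT, which makes methyl jasmonate, by 2.47. IAMT1, which methylates indole acetic acid, fell by 0.64 on the log2 scale. Of 5 tested JA regulators 4 were called higher and 1 lower under mites and 3 higher under caterpillars in not-primed plants. MYC2, the main transcription factor of the JA response, rose by 2.20 under mites and 2.06 under caterpillars in not-primed plants, and MYC3 by 0.83 and 0.70. The JA receptor gene COI1 fell by 0.20 under mites on the log2 scale. MYC4, another MYC factor, rose by 0.26 under mites, and in primed against not-primed plants it was lower without pests (-0.40), under mites (-0.86) and under caterpillars (-0.34). Of the linalool-oxidising P450s 2 were tested, and 0 were called under mites and 1 under caterpillars in not-primed plants.

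**Figure D5:**
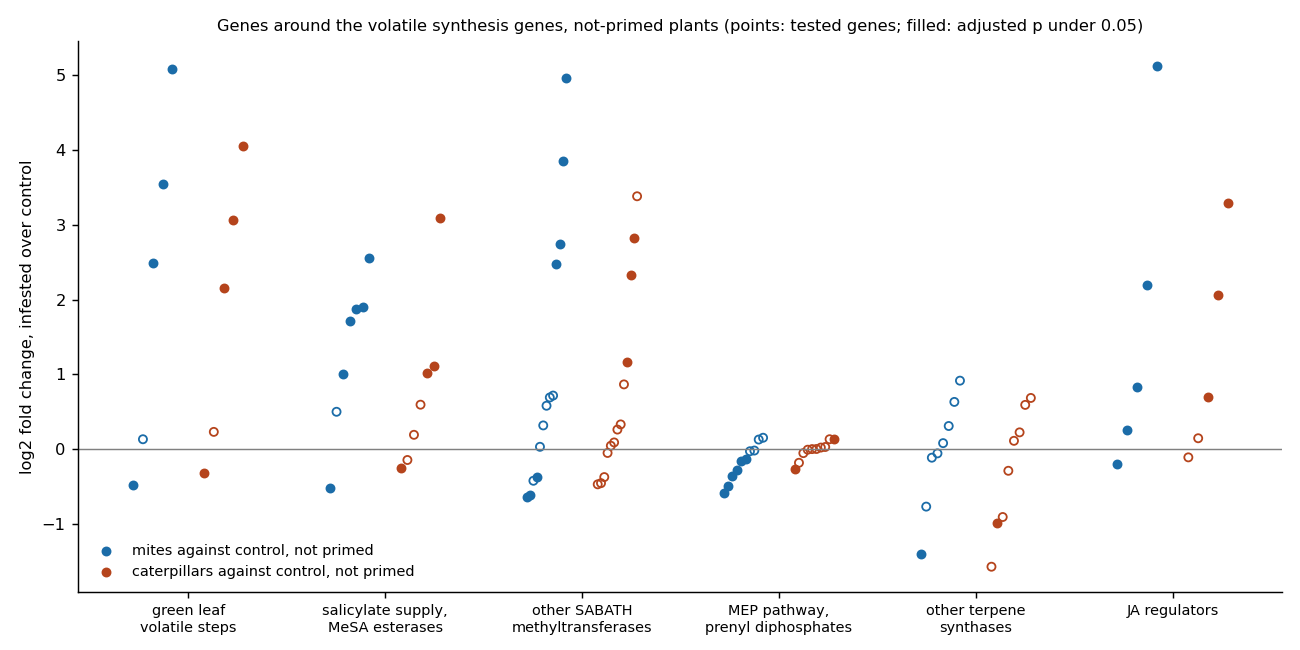
Log2 fold change of infested over uninfested not-primed rosettes for the tested genes of 6 lists around the members, with filled points where the adjusted p is under 0.05. CHAT and LOX2 lie at 5.08 and 3.55 under mites, while the 10 MEP pathway genes lie near or below 0.

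The genes whose profile over the 24 libraries was most like that of each member were found by the root mean square difference of centred log2 CPM, among 15151 candidates that reached 5 CPM in some group. HPL1 had the closest matches: MYC2 (0.164), AOS (0.165) and CYP79B2 (0.176), which starts indole glucosinolate synthesis. TPS04 was closest to the monodehydroascorbate reductase gene AT3G09940 (0.374), MSRB7 (0.590) and the tyrosine aminotransferase TAT3 (0.598). CYP82G1 was closest to TI1 (0.719), AT1G54020 (0.734) and PRN (0.741). BSMT1 was closest to CSLA01 (0.796), the acetyltransferase NATA1 (1.02) and AT1G76640 (1.12). TPS10, which alone leaned towards caterpillars, was closest to AT4G10290 (0.820), CYP94B3 (0.904), which oxidises the active form of JA, and AT2G30830 (0.919). TPS02 was closest to AT4G35160 (0.709), LAS1 (0.786) and AT4G24340 (0.831), and TPS03 to CYP94C1 (0.631), AT5G47330 (0.654) and AT1G68600 (0.660).

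Several of these shared the members' order of the pests, which the choice by likeness over the same libraries made likely in advance. AT4G10290 averaged 4.23 CPM under mites and 10.4 CPM under caterpillars in not-primed plants, and CYP94B3 averaged 6.70 and 16.0 CPM, as TPS10 averaged 10.3 and 22.2 CPM. AT3G09940 averaged 309 and 58.0 CPM, as TPS04 averaged 367 and 86.1 CPM. Among the members themselves TPS04 and CYP82G1 were near each other (0.772), and BSMT1 had TPS10 as its nearest member (1.17). These are descriptions of likeness over libraries that share depth and groups, with no test.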

How the data were processed

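RNA sequencing libraries (NEBNext Ultra RNA kit, RNA from RNeasy columns with DNase, per the labels) were made from 24 rosette samples. The authors deposited raw counts per gene and, for each library, FPKM values, which scale counts per kilobase and library. Reads were aligned with HISAT2 to TAIR10 per the submitters' processing notes; not given in the sources used here are its version, the counting tool, the annotation and the use of strand, so reads of overlapping antisense genes cannot be told apart. Library totals were 15852109 to 27986799 counts, which for a gene with no count leaves a floor of 3 counts.

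Counts were tested with edgeR 4.0.16 in R 4.3.3 (TMM, filterByExpr by group with a count minimum of 10, 1 quasi-likelihood fit of 6 group means over all 24 libraries, Benjamini-Hochberg adjustment over 20038 genes, called under 0.05). The script was tested on simulated data. Intervals are 95%. CPM used each library's count total over the tested genes times its TMM factor. Alternatives were DESeq2 1.42.0, limma 3.58.1 on log2(FPKM + 1) or log2(FPKM + 0.1), RLE factors, no filter, the groups of a comparison alone, a replicate block, each library left out, and pairs of not-primed controls left out. The members, lists, tests and alternatives were chosen with earlier results of these data known. Listed genes were named where they had at least 5 CPM in a group and were called, up to 4 per list by size, and lists of at most 10 tested genes could be named whole; the 3 most alike genes were named per member. Loci, promoters and transcripts came from RefSeq on TAIR10.1, whose nuclear chromosomes are those of TAIR10; all 7 members matched.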

Additional observations from a re-analysis of the deposited data

Results flagged for a closer look

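In 4 of 40 sets of 4 libraries (a gene in a group) the highest library stood apart from the other 3 beyond Dixon's 95% value. That value holds for normally distributed data. Where the other 3 libraries were at 0, as for TPS10 and TPS02 below, any count was flagged. The number of flags is therefore not set against a rate by chance. All were low levels in uninfested plants. TPS10 in the primed controls was at 0.220 CPM in replicate 4 and at 0 in the other 3. TPS02 was at 0.375 CPM in replicate 3 of the not-primed controls and at 0.144 CPM in replicate 3 of the primed controls, and at 0 in the other 3 of each group. CYP82G1 was at 0.891 CPM in not-primed control replicate 3, beside at most 0.141 CPM in the others. Without that library CYP82G1 rose by 8.13 under mites and by 5.13 under caterpillars on the log2 scale.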

How the results depend on the processing

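Of 1575 member values recomputed under alternatives, 1547 kept their side of the threshold, 17 lost a call, 8 gained one and 3 reversed. Of the 1547, 91 were uncalled values that changed sign, and the others kept their direction. All values of mites against control kept their calls. Without not-primed control replicates 3 and 4, 2 members were called for primed against not primed in controls (TPS04 reversed to 3.59 and HPL1 to 0.69), 2 for the interaction with mites (TPS04 reversed to -3.60, HPL1 -0.96) and 1 for that with caterpillars (TPS04, -4.21). Without control replicates 1 and 2, 1 member was called in controls (HPL1). With the groups of the comparison alone, 1 was called under mites (HPL1). With 1 library left out at a time, the members called were 6 to 7 for caterpillars against control in primed plants and 4 to 5 for caterpillars against mites in not-primed plants, and the other counts of members called did not move. The cause of these shifts was not tested.

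Same-numbered libraries did not deviate together (4 of 60 pairs correlated over 0.1), so the numbers were not taken to pair the samples. With a replicate block, 7 members were called in each comparison of infested with control plants and 4 in each of caterpillars with mites; TPS03 lost its call in not-primed plants (-1.74, edgeR adjusted p = 0.0503), and no other member's call changed. TPS10 in caterpillars against mites, not primed, also lost its call in limma on FPKM (adjusted p = 0.0545 with no filter and 0.0627 with a pseudocount of 0.1), as did BSMT1 in primed plants (0.110) and TPS04 in caterpillars against control, primed (0.0752), both with that pseudocount. Called in the groups of the comparison alone were BSMT1 (0.0406) and HPL1 (0.0277) in caterpillars against mites, not primed. Over the whole table, the genes called ranged from 68 to 2087 over the alternatives for the interaction with mites (221 as reported), from 0 to 487 for that with caterpillars (0), from 0 to 45 for that with pest kind (2) and from 1380 to 4578 for primed against not primed in controls (2962). They were 2495 for caterpillars against control, not primed, without control replicates 1 and 2 (5574), and 1085 for primed against not primed under caterpillars without primed caterpillar replicate 4 (1634). Depth limits TPS03, TPS10 and TPS02 in controls, where a group held at most 8 counts.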
